A study of Mus musculus with 12 samples.

Results

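T cells from mouse MCA205 fibrosarcomas were divided by how widely the beta chain of their T cell receptor (TRB) was shared between 6 tumour libraries. A cell was used when exactly 1 TRB contig was listed for it, which held for 23483 of the 30749 cells in the deposited cell table. The CDR3 is the receptor loop that contacts the antigen peptide most directly, and its amino acid sequence served as the identity of a receptor. A receptor was called public when its CDR3 was found in at least 4 of the 6 libraries and private when it was found in 1 library. The members were thus selected on measured values, the CDR3s and the libraries they were found in. By this rule 30 of 3883 CDR3s (0.773%) were public and they covered 3346 cells, which is 14.2% of the cells used. Private CDR3s numbered 3664 (94.4%) and covered 16660 cells (70.9%), and the remaining 189 CDR3s, in 2 or 3 libraries, covered 3477 cells (14.8%). Of the public CDR3s, 15 were found in 4 libraries, 7 in 5 and 8 in all 6.

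The tumours grew under the skin of C57Bl/6 mice after injection of 300000 MCA205 cells, a carcinogen-induced mouse fibrosarcoma line. Every mouse received oxaliplatin at 10 mg/kg on day 8 and an antibody against PD-1 (200 µg) 8 days later, so all groups had the same chemoimmunotherapy. The groups differed in a further antibody given at 2.5 mg/kg every other day around the chemotherapy, either anti-DBI, which binds the diazepam-binding inhibitor (also named ACBP), or an IgG2a isotype control. There were 3 libraries per group, here isotype 1 to 3 and antiDBI 1 to 3. Tumours were taken 2 days after anti-PD1. Because equal numbers of sorted CD4+ and CD8+ lymphocytes were loaded, lineage shares do not reflect the tumour's own ratio. The labels do not state how many mice stand behind a library, so p-values measure the spread between these libraries.

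A TRB chain is made by joining a V, a D and a J segment with random loss and addition of bases at the joints, and each T cell then pairs it with an alpha chain (TRA). Most joined chains are rare, yet some amino acid sequences arise repeatedly in different animals. A known route is convergent recombination, in which different nucleotide joints encode the same protein. Public receptors are also known to gather where many animals select T cells on the same peptide and MHC molecule.

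The nucleotide sequences behind a public CDR3 show whether libraries share a joint or only a protein. Public receptor 12, a CD4 receptor of TRBV3 and TRBJ2-5 with 14 residues, had a different leading TRB sequence in each of the 6 libraries. Receptors are numbered here from the most to the fewest cells. The sequences below run 5′ to 3′, all 6 encode the same CDR3 in the deposited contig table, and capitals mark the 4 of 42 bases that differ among them. A CDR3 is joined from separate segments and so has no single position in the genome.
Isotype 1: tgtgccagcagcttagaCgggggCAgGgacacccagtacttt
Isotype 2: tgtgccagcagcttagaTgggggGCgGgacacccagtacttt
Isotype 3: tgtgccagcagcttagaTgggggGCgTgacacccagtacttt
AntiDBI 1: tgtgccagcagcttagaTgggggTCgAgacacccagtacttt
AntiDBI 2: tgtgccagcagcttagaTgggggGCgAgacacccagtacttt
AntiDBI 3: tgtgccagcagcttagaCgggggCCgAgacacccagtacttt
These sequences stood for 54 of 57, 8 of 8, 11 of 11, 2 of 2, 23 of 23 and 3 of 6 cells of the receptor in the libraries as listed. Each was found in 1 library only. The alpha chain of the same receptor was shared in protein as well: 97 of its 100 cells with a single TRA contig carried the same TRA CDR3, from TRAV6D-6 and TRAJ31, and it was present in all 6 libraries. Isotype 1 encoded it by a sequence with 1 base, again in capitals, that differed from the sequence of the other 5 libraries.
Isotype 1, TRA: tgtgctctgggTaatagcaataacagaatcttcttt
Other 5 libraries, TRA: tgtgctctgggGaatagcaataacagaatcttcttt

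Public receptor 3, a CD8 receptor with TRBJ2-7, is shown because its libraries differed in the V segment as well as in the joint. Capitals mark the 7 of 42 bases that differ among its leading sequences, and the V call and the number of cells follow each name.
Isotype 1, TRBV26, 19 cells: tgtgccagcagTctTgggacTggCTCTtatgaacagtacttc
Isotype 2, TRBV5, 217 cells: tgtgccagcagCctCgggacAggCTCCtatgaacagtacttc
Isotype 3, TRBV26, 1 cell: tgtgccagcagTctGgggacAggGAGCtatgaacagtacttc
AntiDBI 1, TRBV2, 10 cells: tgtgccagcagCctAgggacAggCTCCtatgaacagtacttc
AntiDBI 2, TRBV26, 2 cells: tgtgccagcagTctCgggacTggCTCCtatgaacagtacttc
AntiDBI 3, TRBV26, 31 cells: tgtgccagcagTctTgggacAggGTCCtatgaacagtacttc
Receptor 1, the most abundant, varied at 2 of 39 bases only, again in capitals. It is shown because it made up 612 of the 907 public cells of antiDBI 1 (67.5%). The sequence that led in antiDBI 1 was found in 3 libraries, and each of the others below in 1 library only.
Isotype 1, 27 of 27 cells: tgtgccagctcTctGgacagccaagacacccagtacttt
AntiDBI 1, 612 of 612 cells: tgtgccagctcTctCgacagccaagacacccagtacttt
AntiDBI 2, 21 of 24 cells: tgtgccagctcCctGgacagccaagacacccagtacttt
AntiDBI 3, 42 of 43 cells: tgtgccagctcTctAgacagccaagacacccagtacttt

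Across the 30 public receptors there were 166 TRB nucleotide variants, 125 of them (75.3%) in a single library and 7 in 4 or more. A receptor had between 1 and 12 variants, with a median of 5, and 24 of the 30 had at least as many variants as libraries. In 74 of 143 pairs of a receptor and a library, the leading nucleotide sequence was found in no other library. The V call was not always fixed either, and 19 of the 30 receptors were assigned more than 1 TRBV gene. The joint label TRBV12-2+TRBV13-2 counts here as a gene of its own. In some of these receptors the further calls were rare, with the leading call in 99.6% of cells of receptor 1 and 98.7% of receptor 8. In others they were frequent, with the leading call in 55.6% of cells of receptor 5 and 43.5% of receptor 11.

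Some cells of different libraries matched in the nucleotides of both chains. Of the 2558 public cells with a single TRA contig, 697 (27.2%) carried a TRB and TRA nucleotide pair that was also found in another library, and these came from 14 pairs. All but 46 of these cells lay in the library that held most cells of their pair. In the class of 2 or 3 libraries the share was 744 of 2931 cells (25.4%), and in private cells it is 0 by construction. The cell table listed 536 barcodes in more than 1 library, but no such pair of cells shared its TRB nucleotides. Whether the matching cells arose separately was not tested. The main results are given below also without the cells outside the main library of their pair, which left 28 public CDR3s and 3263 cells.

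Public cells were present in all 6 libraries, at 602, 811 and 266 cells in isotype 1 to 3 and 907, 249 and 511 cells in antiDBI 1 to 3. Private cells numbered 4165, 2768 and 2494 in isotype 1 to 3 and 3211, 1717 and 2305 in antiDBI 1 to 3. Each library held between 21 and 28 of the 30 public receptors. Their cells were unevenly spread, as the plot of cells by receptor and library shows. Receptor 3 had 217 of its 280 cells in isotype 2, whereas receptor 2, of 12 residues, had 105, 83, 67, 51 and 17 cells in isotype 1, isotype 2 and antiDBI 1 to 3. Receptor 30, at the other end, had 4 cells in 4 libraries, all with the same nucleotide sequence and each with a different TRA CDR3.

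**Figure D1:**
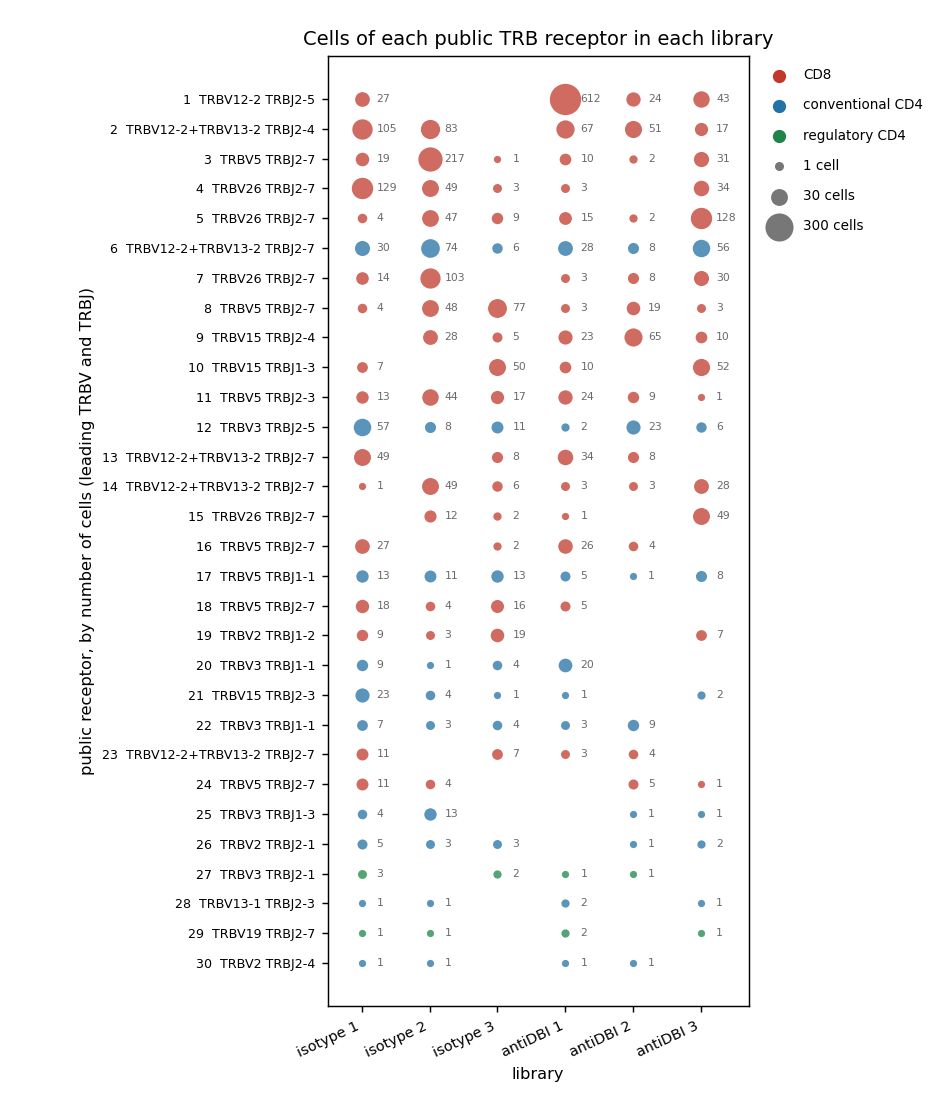
Cells of the 30 public TRB CDR3s (rows, ordered by total cells) in each of the 6 libraries (columns), with dot area growing with the number of cells printed beside it and colour giving the main lineage of the receptor. Receptor 1 dominates antiDBI 1 with 612 cells, while receptors 3, 5, 6, 8, 11, 12, 14 and 17 are present in all 6 libraries.

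Public CDR3s had more cells than private ones within a library. The median was 8 cells per CDR3 and library for public, 2 for CDR3s of 2 or 3 libraries and 1 for private. Entries of at least 10 cells made up 43.4% of public, 15.9% of intermediate and 8.38% of private entries, and single cells made up 16.8%, 39.0% and 59.0%. An entry is not always 1 clone: the 30 cells of receptor 7 in antiDBI 3 came from 7 nucleotide variants, the largest with 8 cells. The number of libraries a CDR3 is found in is not independent of its number of cells, so these sizes are a description. The largest CDR3s were mostly not public: among the 10 with most cells in each library, 60 in all, 12 were public, 11 intermediate and 37 private.

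The public CDR3s were alike in length and J segment. Their length was 13.9 ± 0.681 residues (SD, n = 30) against 14.0 ± 1.34 for private CDR3s, and 22 of 30 (73.3%) had 14 residues, compared with 47.1% of intermediate and 31.7% of private CDR3s. TRBJ2-7 was used by 14 public CDR3s (46.7%), 28.6% of intermediate and 18.3% of private ones. This use lay in the CD8 receptors: 12 of 18 mostly CD8 public CDR3s used TRBJ2-7 against 19.5% of 1233 mostly CD8 private ones, while 1 of 10 mostly conventional CD4 public CDR3s did, against 16.2% of 1192. A CDR3 1 residue away was present in the data for 96.7% of public, 75.1% of intermediate and 34.9% of private CDR3s. A set of 9 public CD8 CDR3s (receptors 3, 4, 5, 7, 8, 15, 16, 18 and 24), all of 14 residues with TRBJ2-7, formed a chain of such neighbours with 1202 cells. Around all public receptors lay 68 private CDR3s at 1 residue, with 470 cells, of which 78.1% were CD8 compared with 50.4% of all private cells.

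Libraries with the same public TRB often had the same alpha segments, and in part the same TRA CDR3. For each CDR3 and library the leading TRA was taken, and libraries were compared in pairs. In CD8 receptors, 82.7% of 162 pairs of libraries with the same public TRB had the same TRAV family, 51.9% the same TRAJ and 21.0% the same TRA CDR3. For pairs with different public CD8 receptors, 2982 in all, these values were 28.1%, 8.95% and 0.436%. In conventional CD4 receptors, 78.5% of 79 pairs shared the TRAV family, 94.9% the TRAJ and 58.2% the TRA CDR3, against 7.56%, 7.41% and 1.16% of 688 pairs with different public receptors. CDR3s of 2 or 3 libraries behaved alike in direction, with 71.6% of 67 CD8 pairs and 77.3% of 66 CD4 pairs sharing the TRAV family. Their CD8 pairs shared the TRAJ in 71.6% and the TRA CDR3 in 32.8%, both above the public values. Their CD4 pairs did so in 77.3% and 36.4%, both below the public values. Pairs of libraries share receptors and cells, so these percentages are a description.

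**Figure D2:**
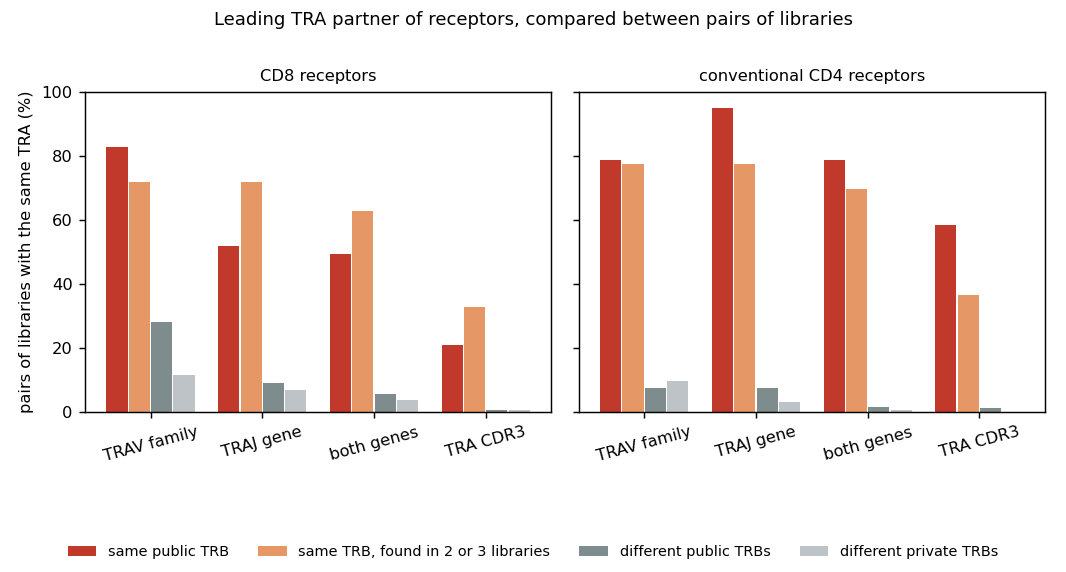
Percent of pairs of libraries (bars) whose leading TRA matched in TRAV family, TRAJ, both, or CDR3, for the same or a different TRB, in CD8 and conventional CD4 receptors. Pairs with the same public TRB stand far above pairs with different TRBs, for example 94.9% against 7.41% for TRAJ in CD4 receptors.

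Single receptors differed in which part of the alpha chain was kept. Receptor 1 was paired with TRAV13-1 and TRAJ32 in 99.5% of 579 cells and in all 4 of its libraries. Receptor 2 kept TRAV3 in 98.5% of cells and TRAJ30 in 90.1%. Receptor 6, the largest CD4 receptor, kept TRAJ45 in 99.1% of cells and in all 6 libraries, with TRAV3 leading in 5 of the 6 and TRAV7-5 in antiDBI 2. Receptor 17, also CD4, used TRAJ37 in every cell with a single TRA contig and in all 6 libraries. The 9 linked CD8 receptors used TRAV8 in 82.4% and TRAV6 in 17.2% of 960 cells. TRAV8 was carried by 45.2% of public CD8 cells against 13.5% of private ones, and TRAV13, the family of receptor 1, by 26.0% against 6.92%. The TRAV11 and TRAJ18 pair, which marks invariant NKT cells, was found in 0 public and 3 private cells, and the TRAV1 and TRAJ33 pair of MAIT cells in 0 of either class.

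Public cells were mostly CD8 cells. Lineage was rebuilt from clusters and from each cell's own Cd4, Cd8a, Cd8b1 and Foxp3 UMIs (unique molecular identifiers, the counted RNA molecules), since a cluster alone did not settle it. Of the 30 receptors, 18 were mostly CD8 (2841 cells), 10 mostly conventional CD4 (493 cells) and 2 mostly regulatory T cells (Treg, 12 cells). The CD8 receptors kept to their lineage, with at least 98.7% of the cells of each in CD8 and 0 in conventional CD4. The CD4 receptors were less uniform, down to 46.2% of cells in the main lineage for receptor 22, and 51 of their cells fell in the CD8 class, 38 of them with more Cd4 than Cd8 UMIs. In the CD8 class 98.2% of public and 94.0% of private cells had more Cd8 than Cd4 UMIs, and 1.35% and 5.25% had more Cd4.

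CD8 cells made up 76.4%, 85.7% and 86.5% of public cells in isotype 1 to 3 and 94.2%, 81.5% and 86.3% in antiDBI 1 to 3. In private cells the CD8 shares were 46.1%, 32.9% and 53.8% in isotype 1 to 3 and 56.6%, 62.7% and 57.4% in antiDBI 1 to 3. The ranges did not overlap, and the public share was higher in 6 of 6 libraries. The mean was 85.1% ± 5.90 (SD, n = 6) against 51.6% ± 10.6, a difference of 33.5 ± 11.3 percentage points (exact two-sided sign-flip permutation test over libraries, p = 0.03125 and adjusted p = 0.03125 over the 3 lineages, the smallest this design allows). The same public receptors recur across libraries, with 21 to 28 of them in each, so the 6 public values are not independent. The p-value does not measure the spread between receptors. This limit also holds for the other lineages, the clusters and the genes below.

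Conventional CD4 cells made up 12.3% ± 5.32 of public against 27.1% ± 8.78 of private cells (n = 6), a difference of -14.8 ± 10.1 points that was negative in 6 of 6 libraries (exact permutation, adjusted p = 0.03125). Treg cells made up 1.65% ± 1.15 of public against 16.3% ± 4.71 of private cells, a difference of -14.7 ± 4.25 points, negative in 6 of 6 libraries with the same exact permutation p of 0.03125. The Treg share ran from 0.587% to 3.61% in public cells and from 8.42% to 21.3% in private cells. Without the cells outside the main library of their TRB and TRA pair, the differences were 32.4, -14.1 and -14.2 points.

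**Figure D3:**
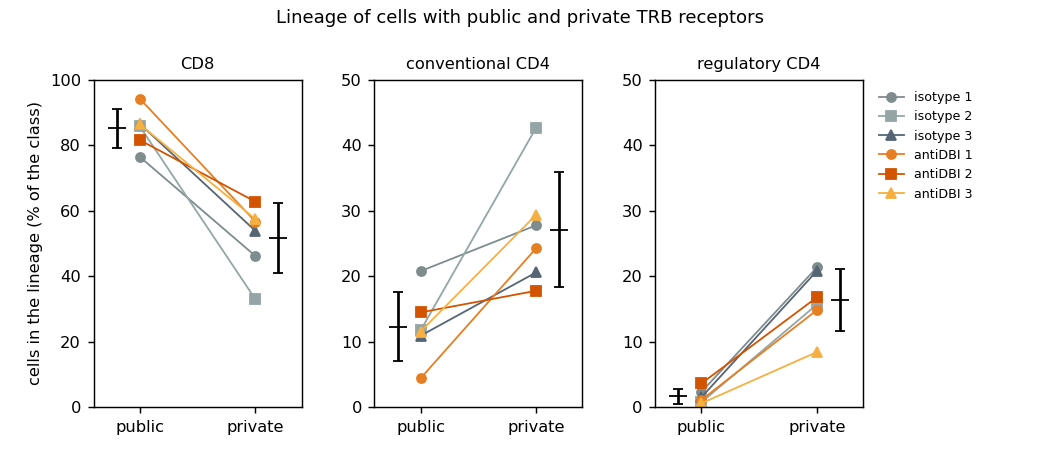
Percent of public and of private cells in the CD8, conventional CD4 and Treg lineage, with a line joining the values of each of the 6 libraries and black bars at the mean ± SD (the axis ends at 100 for CD8 and at 50 for the others). From public to private, all 6 lines fall for CD8 and all rise for conventional CD4 and for Treg.

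The conventional CD4 difference depended on the number of cells per CDR3: with every CDR3 of a library counted once it was -0.863 points (exact permutation, adjusted p = 0.906), while CD8 was at 27.9 and Treg at -20.0 points (exact permutation, adjusted p = 0.0469 for both). With public defined as all 6 libraries, the differences were 14.0 points for CD8, 3.61 for conventional CD4 and -14.1 for Treg, and 0 of the 3 passed. CDR3s just inside the rule, in 4 libraries, had 94.5% of their cells in CD8, and those just outside, in 3 libraries, had 77.2%. Receptor 1, a CD8 receptor, alone gave 706 of the 1248 cells of CDR3s in 4 libraries.

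Within the CD8 lineage, public and private cells fell into the same clusters. Cluster 0, led by Trav8d-2, Trav8n-2, Cd8a, Ifit3 and Ccl5, held 62.0% ± 6.50 of public and 55.4% ± 3.80 of private CD8 cells (n = 6). Cluster 3, led by granzyme genes (Gzmg, Gzmf and Gzmd), Spp1 and Prf1, held 11.3% ± 3.20 of public and 16.7% ± 4.80 of private CD8 cells. The difference was 6.56 ± 4.45 points for cluster 0, higher in 6 of 6 libraries, and -5.45 ± 2.30 points for cluster 3, lower in 6 of 6. After adjustment over the 9 pairs of lineage and cluster, 0 passed (exact permutation, p = 0.03125 and adjusted p = 0.141 for both clusters). Receptor segments lead cluster 0 and are also what defines the classes, so its share is not independent of the receptors.

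In gene expression, CD8 cells with public receptors had lower levels of Prf1, Spp1, Ubash3b and Tox than private CD8 cells, and higher levels of Trat1, Cxcr3 and 4 genes of the type I interferon list. UMI counts were summed per library and class, and public was tested against private with the library as a block in edgeR's quasi-likelihood test, with Benjamini-Hochberg adjustment over all genes and receptor segments left out. Of 10285 genes, 218 passed (2.12%): 119 were higher (1.16%) and 99 lower (0.963%) in public cells. The changes were small, with a median absolute log2 difference of 0.30 among the genes that passed. Levels below are CPM (UMI counts relative to the sum's total) after TMM scaling, given for isotype 1 to 3 and then antiDBI 1 to 3. The median UMIs per cell were lower in public than in private CD8 cells in 6 of 6 libraries (4378 to 7778 against 5094 to 8219), and the part of this in the gene results was not tested.

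Prf1, the pore-forming perforin of killer cells, was lower in public CD8 cells in 6 of 6 libraries. It was at 211, 398, 294, 456, 257 and 386 CPM in public and 365, 475, 560, 765, 470 and 572 CPM in private cells. The groups overlapped across libraries although each library moved the same way, and the log2 difference was -0.68 (SE 0.0933, adjusted p = 0.0245). Prf1 passed only without isotype 2 when a library was left out, with adjusted p up to 0.103 over the 6 such fits and log2 differences from -0.77 to -0.64. Of the 27 tested cytotoxic genes, Prf1 was the only one to pass, while 2.12% of all genes passed. Gzmb was at -0.24 (adjusted p = 0.59) and Ifng, the effector cytokine, at -0.31 (adjusted p = 0.0825). Of the 27 genes, 9 lay above 0, compared with 5397 of 10285 genes.

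Spp1, encoding the secreted phosphoprotein osteopontin, was at 43.6, 50.2, 107, 77.3, 16.2 and 33.0 CPM in public and 87.9, 105, 189, 152, 71.4 and 95.1 CPM in private cells. It was lower in each library, by 1.15 on the log2 scale (SE 0.139, adjusted p = 0.0138). The call was lost without isotype 1 or without isotype 2 (highest adjusted p 0.0663). Both Prf1 and Spp1 are among the leading genes of cluster 3, whose share was lower in public cells in 6 of 6 libraries. Among CD8 cells of cluster 0 alone, the log2 difference was -0.93 for Spp1 (adjusted p = 0.00553) and -0.73 for Prf1 (adjusted p = 0.25).

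Ubash3b, a phosphatase that dampens T cell receptor signals, fell from 84.7 ± 9.07 CPM in private to 48.0 ± 6.75 CPM in public cells (SD, n = 6). Its public values of 44.2, 53.6, 37.6, 45.1, 54.7 and 52.5 CPM all lay below its private values of 86.9, 87.8, 100, 77.1, 78.6 and 77.5 CPM. The log2 difference was -0.79 (SE 0.0834, adjusted p = 0.000319). Myo10, an unconventional myosin, fell from 85.5 to 51.6 CPM (adjusted p = 2.19e-06) and Filip1, which encodes a filamin-binding protein, from 28.5 to 14.4 CPM (adjusted p = 2.74e-05). Fcrl6, an Fc receptor-like protein, stood at 7.17 to 11.9 CPM in public and 13.1 to 16.7 CPM in private cells (adjusted p = 0.00105). Cd9, a tetraspanin, went from 12.8 to 7.10 CPM (adjusted p = 0.00166). Among all genes, 24 had ranges of CPM that did not overlap between public and private sums (0.233%), Ubash3b and Fcrl6 among them. Ubash3b, Myo10, Filip1, Fcrl6, Cd9 and Myo1e passed in each of the 6 fits without 1 library. Gipc2, S100a1 and Nrn1, also among the 10 largest decreases, passed in 2, 3 and 3 of them. Among CD8 cells of cluster 0 alone, Myo10, Filip1, Cd9 and Myo1e passed. Ubash3b (log2 difference -0.73, adjusted p = 0.172) and Fcrl6 (-0.59, adjusted p = 0.144) did not pass there.

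Inhibitory receptors and exhaustion genes did not move as a group. Of 18 tested, Nr4a3, a transcription factor induced by receptor signals, was higher, while Tox, a transcription factor of exhausted T cells, Cd244a, which encodes the receptor 2B4, and Nrp1, a semaphorin co-receptor, were lower. Tox stood at 10.6 against 16.0 CPM (log2 difference -0.63, adjusted p = 0.0117) and lost its call without isotype 2 (adjusted p = 0.0592). Cd244a stood at 15.1 against 22.2 CPM (adjusted p = 0.00896). Pdcd1, which encodes PD-1, the target of the antibody all mice received, was at 767 ± 60.9 CPM in public and 810 ± 78.1 CPM in private cells (log2 difference -0.07, adjusted p = 0.321), and Havcr2, encoding TIM-3, was at -0.11 (adjusted p = 0.528). In the regulatory T cell list, Batf, a transcription factor of effector cells, was higher and Nrp1 was lower of 22 tested, and each passed in at most 2 of the 6 fits without 1 library. The exhaustion list's median was -0.03, against 0.01 over all genes tested, of which 2.12% passed.

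Genes of the innate-like and natural killer list gave 0 higher and 3 lower among 16 tested, compared with 1.16% and 0.963% of all genes. The 3 were Klre1, Klrb1c and Tyrobp, which encode 2 killer cell lectin-like receptors and a signalling adaptor. Klre1 was at 107 against 147 CPM (adjusted p = 0.0211) and lost its call without isotype 3, antiDBI 1 or antiDBI 2 (adjusted p up to 0.0735). Klrb1c, with 33 public and 208 private UMIs, was at 1.46 against 3.36 CPM, and Tyrobp, with 20 and 215 UMIs, at 0.822 against 4.23 CPM. Tyrobp passed in 0 of the 4 fits without 1 library in which it could be tested, and Klrb1c in 1 of 5. The summed level of the natural killer marker list moved with these genes, from 3.31 to 20.3 CPM in private and 0.789 to 4.63 CPM in public sums, with Ncr1 at 0 in public cells; its part in the result was not tested. Gamma-delta T cell markers summed to 2.79 to 11.0 CPM in public and 5.55 to 23.6 CPM in private sums, with Blk, Il17a and Sox13 at 0 in both.

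Among the genes that were higher, Trat1, an adaptor attached to the T cell receptor complex, had the largest difference of those named. Its levels were 27.5, 26.7, 7.05, 6.32, 22.2 and 14.3 CPM in public and 12.6, 8.03, 3.87, 5.11, 13.4 and 10.0 CPM in private cells, so it was higher in each library while the groups overlapped. The log2 difference was 0.91 (SE 0.156, adjusted p = 0.0054), and without isotype 1 the adjusted p was 0.0562. Lsr, a lipoprotein receptor, rose from 6.59 to 12.1 CPM (adjusted p = 0.00721), Pdgfb, a growth factor chain, from 6.47 to 11.0 CPM (adjusted p = 0.00954) and Prkcz, an atypical protein kinase C, from 13.2 to 19.8 CPM (adjusted p = 0.0058). Of these 3, Lsr and Prkcz passed in all 6 fits without 1 library, and Pdgfb in 5, missing without antiDBI 2 (adjusted p = 0.0512). The other 6 of the 10 largest increases, Unc5cl, Ralgps2, Rarg, Baiap3, Heg1 and Amz2, had log2 differences from 0.54 to 0.82.

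Cxcr3, the chemokine receptor that guides T cells to sites of interferon-gamma response, was at 44.4, 32.6, 35.3, 54.0, 57.4 and 83.4 CPM in public and 28.2, 25.2, 18.8, 47.2, 43.6 and 46.2 CPM in private cells. It was higher in 6 of 6 libraries, by 0.53 on the log2 scale (SE 0.0883, adjusted p = 0.00418), and in all 6 fits without 1 library. In the T-helper 1 list it was joined by Stat4, the interleukin-12 signal transducer, at 160 against 140 CPM (adjusted p = 0.023). Thus 2 of 12 tested passed, both higher, while 1.16% of all genes passed as higher. Stat4 passed in 2 of the 6 fits without 1 library, those without antiDBI 1 and without antiDBI 2 (adjusted p up to 0.0957).

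Compared with 1.16% and 0.963% of all genes, the type I interferon list gave 4 higher and 0 lower of 30 tested. They were Oas3, an antiviral oligoadenylate synthetase, Bst2, the surface protein tetherin, Rtp4, an interferon-induced transporter protein, and Ifi27l2a, an interferon-induced mitochondrial protein. Oas3 rose from 26.6 to 37.0 CPM (log2 difference 0.44, adjusted p = 0.00672), Rtp4 from 60.8 to 78.9 CPM (0.38, adjusted p = 0.0254) and Bst2 from 258 to 294 CPM (0.18, adjusted p = 0.0168). Ifi27l2a was at 3080, 1980, 2730, 1644, 1615 and 1942 CPM in public and 2345, 1648, 1938, 1513, 1172 and 1313 CPM in private cells, higher in each library (log2 difference 0.38, SE 0.0612, adjusted p = 0.0371). Of the 30 genes, 29 lay above 0, all but Oasl1 at -0.51, and the median was 0.22, compared with 5397 of 10285 genes above 0 and a median of 0.01. Oas3 passed in all 6 fits without 1 library, Bst2 in 4, Rtp4 in 2 (without antiDBI 1 and antiDBI 2) and Ifi27l2a in 1 (without antiDBI 1), with adjusted p up to 0.149. The list's genes also include a leading gene of cluster 0, Ifit3. Among CD8 cells of cluster 0 alone, Oas3 passed (log2 difference 0.46, adjusted p = 0.0105). Bst2 (0.17, adjusted p = 0.117), Rtp4 (0.30, adjusted p = 0.191) and Ifi27l2a (0.33, adjusted p = 0.131) did not pass there.

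**Figure D4:**
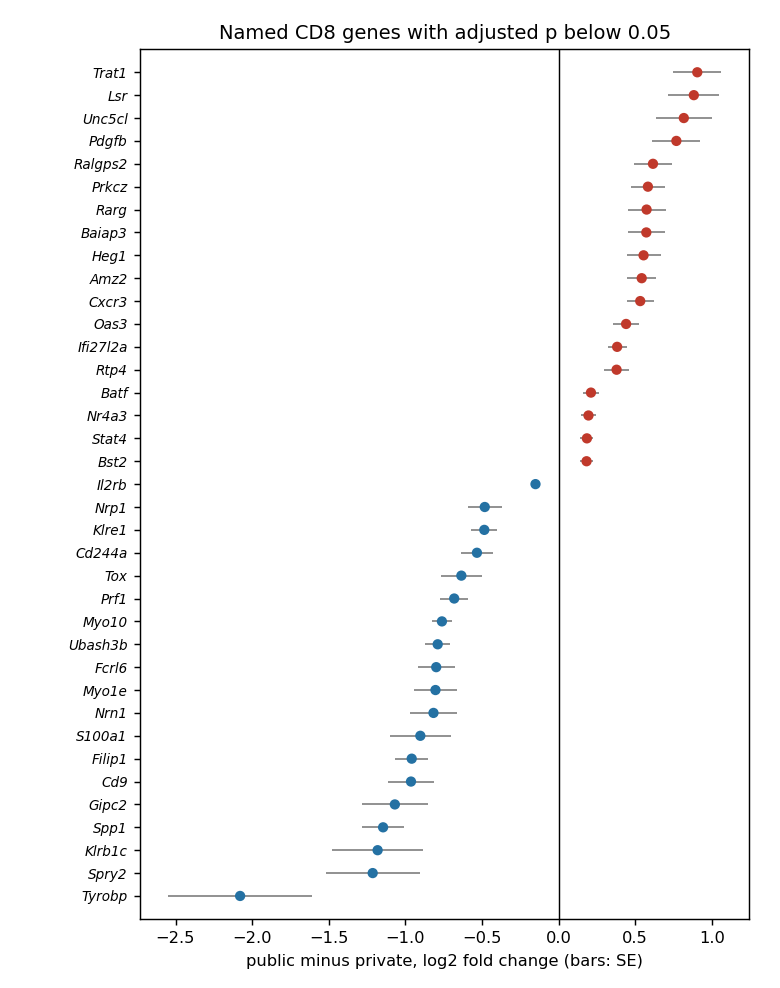
Log2 difference, public minus private CD8 cells, for the named genes that passed at an adjusted p below 0.05, as points with SE bars, from edgeR over 6 libraries with the library as a block. Tyrobp lies farthest below 0 at -2.08, and Trat1 farthest above at 0.91.

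The T cell receptor signal list showed 1 higher, Nr4a3, and 1 lower, Spry2, a feedback inhibitor of kinase signalling, among 27 tested. Its median was 0.16, with 18 above 0. Over all genes 2.12% passed, the median was 0.01 and 5397 of 10285 lay above 0. Spry2, with 26 public and 194 private UMIs, was at 1.29 against 3.19 CPM and passed in 1 of the 5 fits without 1 library that tested it (adjusted p up to 0.191). Nr4a3 was at 173 against 151 CPM (log2 difference 0.20, adjusted p = 0.0457), passed in 2 of the 6 fits without 1 library and changed sign with public defined as all 6 libraries (-0.13). The cell cycle list had 0 of 40 passing and a median of 0.07, and 31.6% ± 7.54 of public and 31.4% ± 7.84 of private CD8 cells were called outside G1 in the deposited table. Glycolysis and tissue residency genes had 0 of 26 and 0 of 13 passing. Il2rb, a receptor chain for interleukin-2 and interleukin-15, fell from 955 to 860 CPM (adjusted p = 0.00672). Of genes tied to naive and memory cells, Tcf7 was at a log2 difference of -0.14 (adjusted p = 0.862) and Ccr7, a lymph node homing receptor, at -0.22. Cd4, a check of the lineage, was at 20.2 to 53.1 CPM in private and 0.549 to 48.1 CPM in public CD8 sums. With lineage taken from each cell's own UMIs alone, 265 CD8 genes passed in edgeR, 200 of them among the 218. Of the named genes, Spp1 (adjusted p = 0.0907) and Nrp1 (adjusted p = 0.0521) then lost their call. Ifng gained one (adjusted p = 0.0162), and the cause of these changes was not tested.

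**Figure D5:**
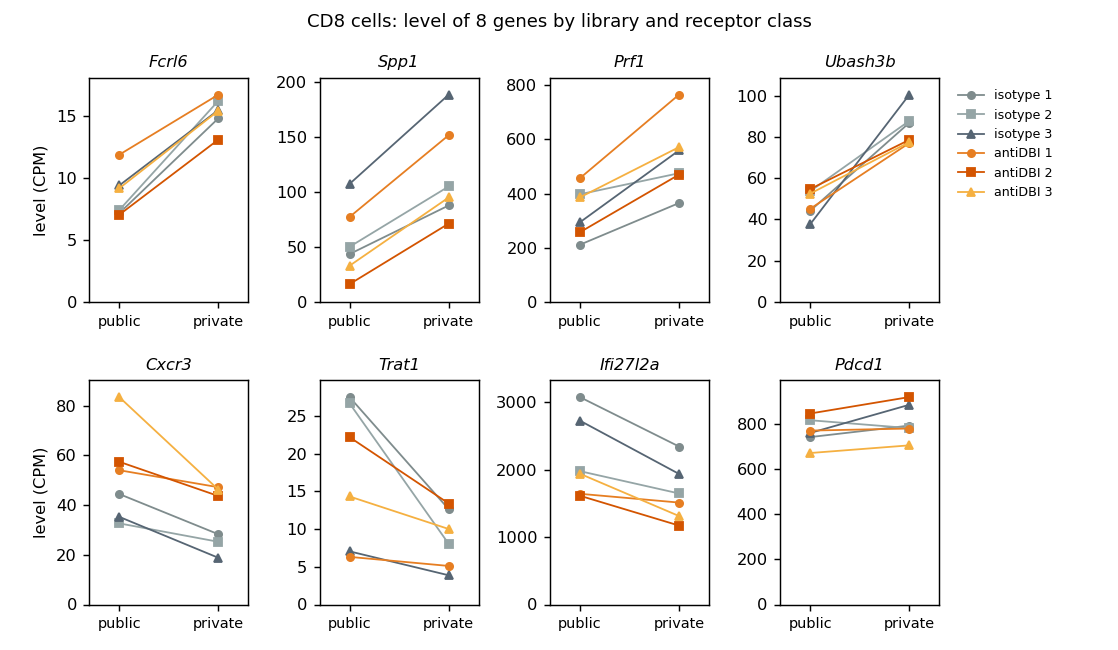
CPM of Fcrl6, Spp1, Prf1, Ubash3b, Cxcr3, Trat1, Ifi27l2a and Pdcd1 in summed public and private CD8 cells, with a line joining both values of each of the 6 libraries. The public and private ranges separate fully for Fcrl6 and Ubash3b, while the other genes overlap between libraries.

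Receptors varied in these genes among themselves and between libraries, which is shown for receptor 1 since it was the largest. Its cells had 755 CPM of Prf1 in isotype 1 (27 cells), 503 in antiDBI 1 (611 CD8 cells), 182 in antiDBI 2 (24 cells) and 849 in antiDBI 3 (43 cells). The share of its cells in cluster 3 was 37.0% in isotype 1, 15.5% in antiDBI 1, 8.33% in antiDBI 2 and 18.6% in antiDBI 3. Cd5, a surface protein whose level follows receptor signal strength, was at 20.9 CPM for receptor 1 in isotype 1, 376 in antiDBI 1, 93.0 in antiDBI 2 and 48.2 in antiDBI 3. The public sum of antiDBI 1 had 313 CPM of Cd5, and over all libraries Cd5 did not pass (log2 difference 0.39, adjusted p = 0.497). Receptor 2 had 83.4 CPM of Prf1 in isotype 1 and 433 in isotype 2, while Trat1 was at 59.7 and 0 CPM there. The same TRB thus came with different levels in different libraries, from 17 to 611 cells per sum, and no test was made on single receptors.

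The number of CD8 genes that passed moved with the libraries and with the definition of a receptor. It was 93 without isotype 1, 135 without isotype 3, 115 without antiDBI 2, 141 without antiDBI 3 and 401 without antiDBI 1, where receptor 1 is concentrated; with identity by CDR3 nucleotides, which leaves 4 libraries, 13 passed, 4 of them among the 218. Among receptors of at least 10 cells on both sides, 333 passed, 187 of them among the 218, and among cells of cluster 0 alone 140 passed, 105 of them among the 218. Without the cells outside the main library of their TRB and TRA pair, 275 passed. With DESeq2 153 passed, 113 of them among the 218, and all 218 kept their sign. With public defined as all 6 libraries 155 passed, 76 of them among the 218.

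In conventional CD4 cells, 2 of 8453 genes passed (0.0237%), 1 lower (0.0118%) and 1 higher (0.0118%), and 495 had an unadjusted p below 0.05. S1pr1, the sphingosine phosphate receptor that lets T cells leave tissues, was lower. Its levels were 7.69, 8.83, 6.14, 3.24, 16.3 and 15.6 CPM in public and 23.3, 18.8, 28.3, 49.1, 54.6 and 29.0 CPM in private cells. Every public value lay below every private one, but the public values rest on few UMIs, as the public sums held 158735 to 1066084 UMIs. The log2 difference was -1.68 (SE 0.265, adjusted p = 0.00176), with adjusted p from 0.00502 to 0.0165 in the fits without 1 library. Dusp14, a phosphatase that limits T cell receptor signals, was higher in 5 of 6 libraries, at 414, 77.3, 79.8, 159, 315 and 252 CPM in public and 233, 66.0, 102, 112, 165 and 135 CPM in private cells. Its log2 difference was 0.64 (SE 0.114, adjusted p = 0.0185), and the call was lost without isotype 1, antiDBI 2 or antiDBI 3 (adjusted p up to 0.243). Neither passed in DESeq2, which called 0 genes, with 255 at an unadjusted p below 0.05.

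Other CD4 genes gave no call. Tcf7, the transcription factor of naive and memory cells, was at a log2 difference of -0.78 (adjusted p = 0.272), Gzmk at -1.40 (adjusted p = 0.612), Pdcd1 at 0.09 and Ifng at 0.23. In the exhaustion list 17 of 18 tested genes lay above 0, with a median of 0.17 and 0 passing. The interferon list had 4 of 28 above 0 and a median of -0.18. Among all genes tested in these cells, 4047 of 8453 lay above 0, with a median of -0.01. The public sums here were shallow, from 158735 to 1066084 UMIs against 2366058 to 9736909 in private sums, compared with 1267113 to 6739448 in public and 5465642 to 17121692 in private CD8 sums.

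Treg cells with public receptors were too few for a test, with 46 cells in all: 14, 6 and 4 in isotype 1 to 3 and 10, 9 and 3 in antiDBI 1 to 3. Foxp3, the master transcription factor of the lineage, was at 202, 413, 531, 511, 479 and 410 CPM in public and 475, 605, 511, 615, 644 and 757 CPM in private Treg cells. Ikzf2, which encodes Helios, was at 209, 379, 475, 336, 128 and 364 CPM in public and 654, 643, 725, 511, 583 and 527 CPM in private Treg cells. The public class was less pure: 52.2% of its cells had a Foxp3 UMI, against 81.25% of private Treg cells. More Cd8 than Cd4 UMIs were found in 17.4% of public and 3.32% of private Treg cells. The part of this in the Foxp3 and Ikzf2 levels was not tested. Receptors 27 and 29 were found as Treg cells only, with 7 and 5 cells in 4 libraries each.

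The share of public cells was compared between the antibody groups. Public cells made up 11.1%, 19.9% and 7.38% of the cells used in isotype 1 to 3 and 19.1%, 10.7% and 15.4% in antiDBI 1 to 3. The values overlapped, with means of 12.8% ± 6.44 and 15.1% ± 4.20 (SD, n = 3 each, exact two-sided permutation p = 0.8, the smallest this test can give being 0.1). Within CD8 cells the public share was 16.2%, 38.3% and 9.81% in isotype and 26.9%, 13.9% and 20.8% in antiDBI libraries (exact permutation, n = 3, p = 0.9). Within conventional CD4 cells the means were 6.77% and 6.36% (exact permutation, n = 3, p = 0.8), and within Treg cells 1.17% and 1.97% (exact permutation, n = 3, p = 0.2). In each of these comparisons the values of both groups overlapped. Without receptor 1 the difference between the groups changed sign, to -2.27 points.

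The contrast of public and private cells was also compared between the antibody groups, as an interaction in the same model. In CD8 cells 0 of 10285 genes passed (0%) in edgeR, with 330 at an unadjusted p below 0.05, and 0 passed in DESeq2, with 52. In conventional CD4 cells 1 of 8453 passed (0.0118%), Cxcl3, a neutrophil-attracting chemokine. In public cells it was at 33.7, 8.83 and 0 CPM in isotype and 0, 10.9 and 0 CPM in antiDBI libraries. In private cells it was at 6.95, 5.59 and 0.429 CPM in isotype and 0.199, 56.3 and 22.4 CPM in antiDBI libraries.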

How the data were processed

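Single T cells were profiled with the 10x 5′ kit and its mouse TCR kit. The authors deposited raw UMI counts per gene and barcode, a table of cells with clusters, and TCR contigs; Cell Ranger 7.0.0, Seurat and mm10 are named in the submitters' processing notes. The deposited counts of 32285 genes and 69249 barcodes were restricted to the 30749 cells of the table. The members and gene lists were chosen with earlier results of these data known. Clusters 0, 3 and 6 were taken as CD8 and cluster 2 as Treg; cells of clusters 4, 5 and 8 were assigned by their own UMIs (a Foxp3 UMI gave Treg), and cells of clusters 1 and 7 by Cd4 against Cd8a plus Cd8b1. Doublets were not called anew. No source used here explains a deposited column named DF1; the 2407 cells it marks FALSE were kept.

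Counts were summed per library, lineage and class (at least 10 cells) and tested with edgeR 4.0.16 in R 4.3.3 (filterByExpr, TMM, robust quasi-likelihood, library block, Benjamini-Hochberg threshold 0.05). DESeq2 1.42.0 and limma 3.58.1 gave alternatives. Shares were tested by exact sign flips over libraries or exact permutation of libraries, in Python 3.11.15 with scipy 1.17.1. Named genes were fixed markers, the 10 genes with the largest change in each direction among genes that passed, had a mean of 10 CPM or more in either class and moved alike in all libraries but at most 1, and up to 4 members of each list that passed, with the smallest p. Of the markers, 1 is not reported here. On simulated data the CD8 fit (10209 genes) recovered 98.0% of genes changed by 1 on the log2 scale and the conventional CD4 fit (8331 genes) 85.1%. Median UMIs per cell ran from 4475 to 7526 across libraries, and the size of the sums sets the precision.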

Additional observations from a re-analysis of the deposited data

Results flagged for a closer look

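Cxcl3 was the single gene whose difference between public and private conventional CD4 cells itself differed between the antibody groups, by -4.74 on the log2 scale (antiDBI minus isotype, SE 0.726, adjusted p = 0.00233 in edgeR's quasi-likelihood test). In each class and group at least 1 library was below 1 CPM, and the highest value, 56.3 CPM, was in private cells of antiDBI 2. With DESeq2 and with a limma fit that adds the replicate number, 0 genes passed.

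Public CDR3s were also found in cells that the rule leaves out. Of 1028 cells with 2 or more TRB contigs, 244 (23.7%) carried a public CDR3, and 14.2% of cells with exactly 1 TRB contig were public. They were 26, 0 and 1 cells in isotype 1 to 3 and 187, 7 and 23 cells in antiDBI 1 to 3, and 182 of them carried receptor 1 in antiDBI 1, the library where that receptor had most of its cells.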

How the results depend on the processing

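Alternatives on the number of cells per CDR3, the largest receptor in shares, single clusters, the DF1 column and the main library of a chain pair were chosen after seeing the data. CD8 genes that passed (218) numbered 382 without a filter on low counts, 1 without the block on libraries (no replicate block), 93 to 401 without 1 library, 96 and 369 with public as at least 3 or 5 libraries, 104 with identity by V gene and CDR3, 13 by nucleotides, 429 without the largest receptor, 333 in receptors of at least 10 cells, 140 and 88 in cluster 0 or 1 alone and 29 in the antiDBI libraries alone. They numbered 153 with DESeq2 and 155 with public as all 6 libraries. The CD8 interaction (0) gave 45 without the filter and 0 to 6 without 1 library. Conventional CD4 genes (2) numbered 0 with DESeq2, without the block and in receptors of at least 10 cells, 29 without the filter, 1 to 6 without 1 library, 28 and 6 with at least 3 or all 6 libraries, 12 without the largest receptor, 33 with clusters 1 and 7 set to conventional CD4, 1 without shared barcodes, without cells of 2 TRA contigs or in cluster 1 alone, and 6 in the isotype libraries alone. The CD4 interaction (1) gave 0 with DESeq2, 8 without the filter, 1 to 4 without 1 library and 0 with a replicate block in limma.

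The CD8 share difference ran from 29.6 to 36.4 points without 1 library, where 0.0625 is the smallest exact permutation p, and was 14.0 with all 6 libraries required, 10.4 by nucleotides, 38.6 in isotype and 28.4 in antiDBI libraries. The CD4 difference ran from -17.1 to -11.5 and was 3.61, 2.35, -15.9 and -13.7 in the same order, -14.2 in CDR3s of at least 10 cells and -0.863 with each CDR3 counted once. The Treg difference ran from -16.0 to -13.7 and was -14.1, -12.6, -17.8 and -11.6. The treatment difference in the public share (all cells, 2.25 points) ran from -0.468 to 5.81 without 1 library and was -2.58 and -2.03 with at least 5 or all 6 libraries, -0.312 by nucleotides and -2.27 without the largest receptor. In CD8 it ran from -6.73 to 7.52 and was 3.21 by V gene and CDR3, 0.153 in CDR3s of at most 2 cells and 2.03 without cells of 2 TRA contigs. In CD4 it ran from -1.26 to 0.648 and was 0.521 and 0.262 with at least 3 or all 6 libraries, 1.13 and 0.609 in CDR3s of at most 2 or at least 10 cells, and 0.955 with clusters 1 and 7 set to conventional CD4.

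Of 1739 combinations of a named gene and an alternative, 1381 were counted as unchanged, 323 lost and 17 gained a call. The unchanged ones include changes of sign where the gene passed in neither fit. In 18 the sign changed and the gene passed in the main fit or in the alternative. By nucleotides these were Gzmk (-1.22, adjusted p = 0.000248), Lsr (-0.21), Unc5cl (-0.56), Ralgps2 (-0.32), Baiap3 (-0.78), Filip1 (0.074), S100a1 (0.039), Tyrobp (0.035), Batf (-0.23) and Ifi27l2a (-0.072). In cluster 1 alone they were Cxcr3 (-0.058), Prf1 (0.048), Klre1 (0.11), Bst2 (-0.20), Rtp4 (-0.59) and Il2rb (0.21). The others were Nr4a3 with all 6 libraries (-0.13) and Tcf7 in receptors of at least 10 cells (1.18, adjusted p = 0.0105). The cause was not tested in any of these.

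Deviations of the public minus private differences were correlated between libraries of the same replicate number, with values from -0.044 to -0.010 in CD8. Effects common to both sums of a library cancel in such a difference, so these values cannot decide whether the numbers pair the libraries. With the replicate number as a block the treatment differences were 2.25, -0.913, -0.412 and 0.803 points for all, CD8, CD4 and Treg cells. Gene fits in receptors of at most 2 cells, CD4 genes by nucleotides, CD4 genes in cluster 0 and all Treg gene fits were not run for lack of cells.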
